A study of Mus musculus with 24 samples.

Results

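Respiratory complex I, the NADH:ubiquinone oxidoreductase, is the entry point of electrons from NADH into the mitochondrial respiratory chain. It is described here through every probe set annotated to a single gene symbol of the form Nduf followed by a, b, c, s or v and a number. The rule found 33 genes, 1 probe set each, among the 14754 genes with a probe set of 1 symbol. Of these, 5 encode core subunits, 27 encode accessory subunits, and 1 is Ndufa4, which keeps a complex I name but is now placed in complex IV, cytochrome c oxidase. Some other subunit genes were not analysed here. The subunits encoded by mitochondrial DNA lie outside the rule.

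The RNA came from whole quadriceps, a thigh muscle, of male C57BL/6J mice (written C56BL/6J in the sample labels), with 6 mice in each of 4 groups and 1 Affymetrix array per mouse. The groups were high fat (45% of energy, palm oil) for 28 days, low fat (10%) for 28 days, high fat for 3 days and low fat for 3 days. All mice had first eaten the low fat diet for 3 weeks from 9 weeks of age, and were 16 weeks old at day 28 and 12 weeks old at day 3. Mouse numbers ran from 1751 to 1758, 2020 to 2025, 1767 to 1772 and 2010 to 2019 in that order of groups, so set of animals and group cannot be told apart, nor can age and time on the diet. Assignment to diet and duration was random, per the labels.

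Complex I has a matrix arm, which takes electrons from NADH through flavin and iron-sulfur clusters to ubiquinone, and a membrane arm, which pumps protons. Core subunits carry out this chemistry and are conserved down to bacteria, while accessory subunits surround them and are needed for assembly and stability. In muscle, slow and oxidative fibres are rich in mitochondria and fast glycolytic fibres poorer in them. In RNA from whole muscle, fewer cells of a type and less RNA per cell cannot be told apart.

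Each level below is log2 of the deposited array intensity. A gene was tested when its log2 level was above 4 on at least 6 of the 24 arrays, which 5793 genes were, all 33 complex I genes among them. Differences are log2 changes with the standard error (SE) of a limma fit over all 24 arrays, and a gene was called at a Benjamini-Hochberg adjusted p under 0.05 over the 5793 genes. Levels of the complex I genes varied little between mice of a group. Their residual SD had a median of 0.083 and a range of 0.052 (Ndufs7) to 0.13 (Ndufb2). The median was 0.19 over all genes tested, which were not matched to the complex I genes in level.

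Upstream sequence is shown for 4 of the genes called higher on high fat than on low fat at day 3. Ndufv1 and Ndufb3 were called at both days, and Ndufb7 and Ndufa11 hold a motif of a factor known for nuclear-encoded respiratory genes. The 250 bases before the annotated start were taken from RefSeq (build GRCm38.p6), where 30 of the 33 genes had an entry (all but Ndufa2, Ndufb9 and Ndufs1). The windows are chr19:4012756-4013005 (minus strand) for Ndufv1, chr1:58586147-58586396 (plus strand) for Ndufb3, chr8:83566508-83566757 (plus strand) for Ndufb7 and chr17:56717512-56717761 (plus strand) for Ndufa11. Capitals mark motif matches, and each sequence reads 5′ to 3′ on the gene's strand.
Ndufv1: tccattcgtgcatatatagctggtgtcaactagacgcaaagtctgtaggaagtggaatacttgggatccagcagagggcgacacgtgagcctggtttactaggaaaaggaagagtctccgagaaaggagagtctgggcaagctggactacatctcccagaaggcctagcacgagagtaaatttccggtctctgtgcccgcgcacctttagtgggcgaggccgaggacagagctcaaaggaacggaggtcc
Ndufb3: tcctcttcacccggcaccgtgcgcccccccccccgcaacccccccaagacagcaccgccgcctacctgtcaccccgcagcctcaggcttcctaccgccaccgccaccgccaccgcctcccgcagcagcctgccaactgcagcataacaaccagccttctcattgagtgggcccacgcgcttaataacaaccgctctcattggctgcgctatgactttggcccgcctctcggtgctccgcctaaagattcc
Ndufb7: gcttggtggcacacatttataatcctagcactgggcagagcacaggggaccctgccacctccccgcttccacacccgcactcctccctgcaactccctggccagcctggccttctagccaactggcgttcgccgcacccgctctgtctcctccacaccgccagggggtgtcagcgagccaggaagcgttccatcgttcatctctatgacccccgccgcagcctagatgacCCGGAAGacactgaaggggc
Ndufa11: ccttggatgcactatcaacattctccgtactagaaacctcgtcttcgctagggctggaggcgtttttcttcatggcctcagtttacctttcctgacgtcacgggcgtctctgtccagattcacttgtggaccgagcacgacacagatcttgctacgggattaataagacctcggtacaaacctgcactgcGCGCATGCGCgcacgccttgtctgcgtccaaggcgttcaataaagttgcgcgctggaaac

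Motifs of 3 kinds were searched on both strands of these windows. The letters GCGCA, then any base, then GCGC, the core of the site of nuclear respiratory factor NRF1, was found in 5 of the 30 genes (Ndufa5, Ndufa8, Ndufa11, Ndufs5 and Ndufs6). It was present in 3.74% of all 32851 RefSeq windows of the same length and in 9.09% of those of genes tested. CCGGAAG, bound by ETS factors such as GABP, was found in Ndufb6 and Ndufb7, against 6.91% of all windows and 14.5% of those of genes tested. AAGGTCA, the half-site of oestrogen-related receptors, was found in Ndufb2 and Ndufs5, against 4.08% and 2.91%. No match of one motif overlapped a match of another in these genes. Neither Ndufv1 nor Ndufb3 held any of these letters in this window. These matches are descriptions of sequence and were not tested for use in these muscles.

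After 3 days, 12 of the 33 complex I genes were higher on high fat than on low fat and none was lower, in small steps of 0.16 to 0.26 on the log2 scale (1.11- to 1.20-fold). Over all genes tested, 7.99% were called higher and 6.87% lower. The called genes were 3 of 5 core genes (Ndufv1, Ndufv2 and Ndufs8) and 3 of 7 accessory genes of the electron input module. In the membrane arm they were 2 of 9 accessory genes of the proximal and 4 of 9 of the distal part. Neither of the 2 accessory genes of the quinone module was called by limma. These were Ndufa5 at 0.16 ± 0.057 (adjusted p = 0.0561) and Ndufa9 at 0.10 ± 0.055 (adjusted p = 0.219). The median log2 change was 0.12 over the 33 genes, against -0.0051 over all genes tested. It was 0.17 over the core genes and 0.12 over the accessory genes, a difference that was not tested. Of the 33 genes, 32 had a log2 change above 0 (49.1% of all genes tested), the exception being Ndufa1.

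**Figure D1:**
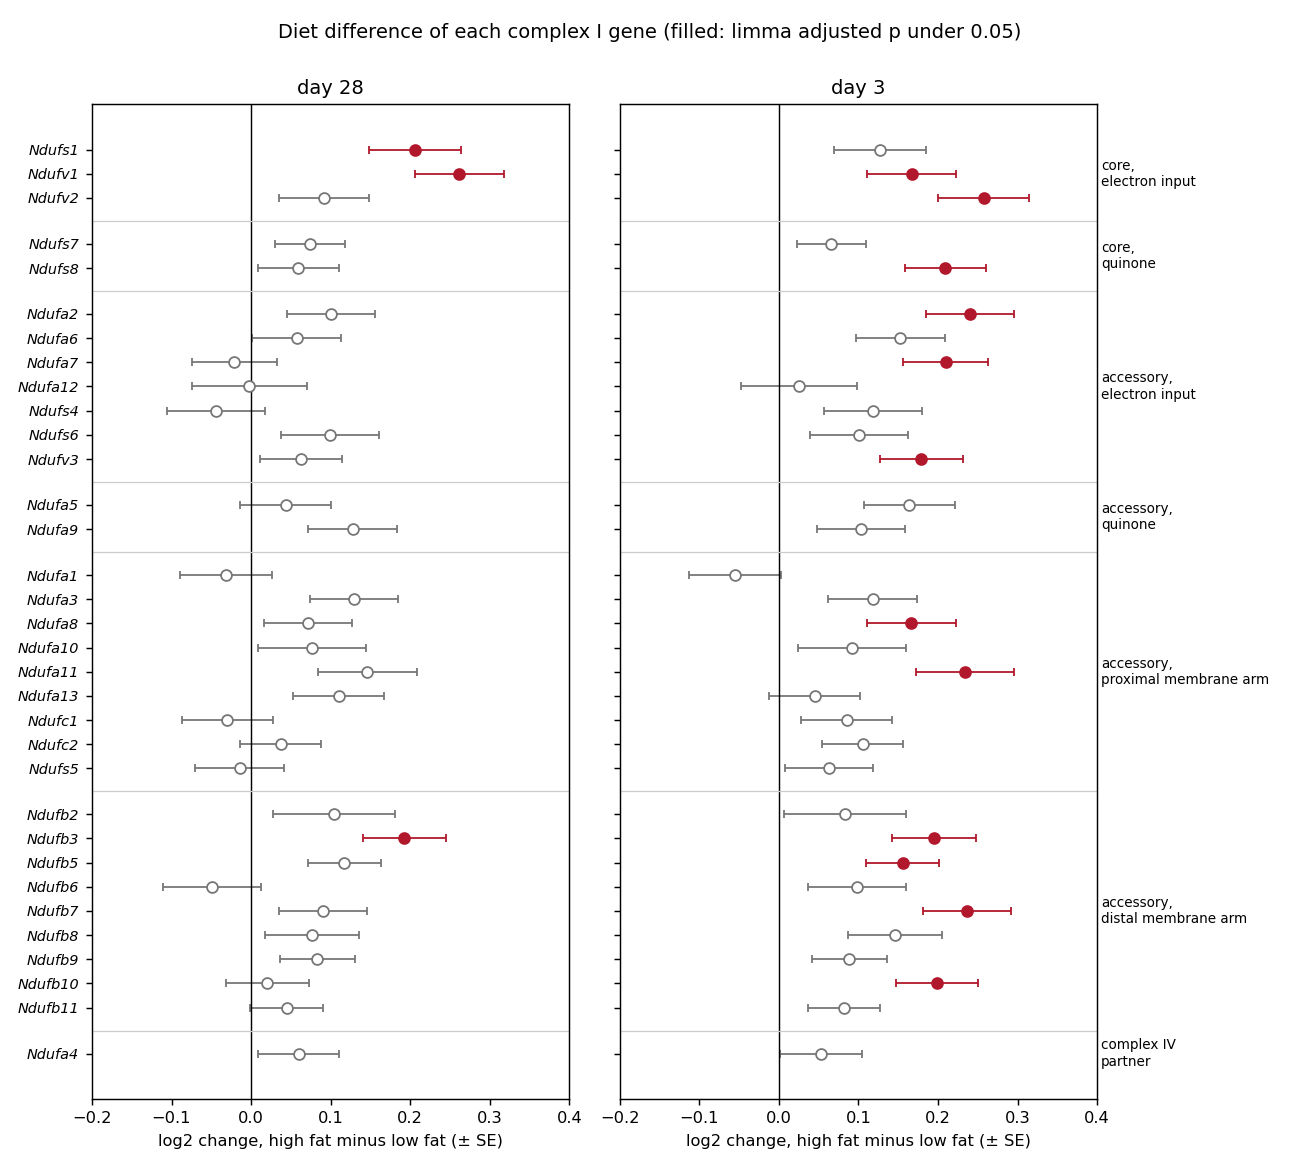
Log2 change (high fat minus low fat, ± SE of the limma fit, 6 mice per group) of each of the 33 complex I genes at day 28 (left) and day 3 (right), grouped by core and accessory module, with Ndufa4 apart. Filled red points were called at an adjusted p under 0.05, 3 at day 28 and 12 at day 3, and all of these lie to the right of 0.

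The core genes of the electron input module encode the parts that accept electrons from NADH. Ndufv2, a subunit with an iron-sulfur cluster, had a lowest, median and highest log2 level of 11.24, 11.27 and 11.32 in the high fat mice at day 3, against 10.74, 11.03 and 11.18 in the low fat mice. Every high fat mouse lay above every low fat mouse, and the low fat mice were the more scattered. The log2 change was 0.26 ± 0.057 (SE, adjusted p = 0.00385), the smallest adjusted p of the 33 genes. Ndufv1, which binds the flavin and NADH, had levels of 10.27, 10.32 and 10.36 on high fat, against 10.01, 10.12 and 10.34 on low fat, so 3 of the 6 high fat mice lay above all low fat mice and the groups overlapped. Its log2 change was 0.17 ± 0.056 (adjusted p = 0.0466). That call was kept in only 9 of the 24 fits that left out 1 array each. Ndufs1, the iron-sulfur subunit that carries the electrons on, missed the threshold at 0.13 ± 0.058 (adjusted p = 0.146).

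In the quinone module, where electrons reach ubiquinone, Ndufs8 had levels of 11.09, 11.18 and 11.33 on high fat, against 10.94, 10.98 and 11.06 on low fat at day 3. The groups did not overlap, and the log2 change was 0.21 ± 0.051 (adjusted p = 0.00768). Ndufs7, the subunit of the last iron-sulfur cluster before ubiquinone, had levels of 11.20, 11.24 and 11.29 on high fat and 11.10, 11.17 and 11.26 on low fat, with a log2 change of 0.066 ± 0.044 (adjusted p = 0.329). The 95% interval of that change was -0.024 to 0.16.

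Among accessory genes of the electron input module, Ndufa2, a small subunit with a thioredoxin-like fold, had levels of 10.98, 11.05 and 11.09 on high fat, against 10.54, 10.84 and 10.93 on low fat. It rose by 0.24 ± 0.055 (adjusted p = 0.00502) with no overlap between the groups. Ndufa7 rose by 0.21 ± 0.054 (adjusted p = 0.0105) and Ndufv3 by 0.18 ± 0.052 (adjusted p = 0.0230), each with 5 of 6 high fat mice above all low fat mice. Ndufa6, a subunit of the LYR protein family, had no overlap between the groups either but was not called, at 0.15 ± 0.056 (adjusted p = 0.0678). Ndufs4, whose loss in mice causes a fatal brain disease, had 0.12 ± 0.061 (adjusted p = 0.205), and Ndufa12 0.026 ± 0.073 (adjusted p = 0.849).

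In the membrane arm, Ndufb7, a subunit on the intermembrane side with paired disulfides, had levels of 10.52, 10.66 and 10.76 on high fat, against 10.29, 10.44 and 10.47 on low fat at day 3. The groups were apart, and the log2 change was 0.24 ± 0.055 (adjusted p = 0.00580). Ndufb10, of the same disulfide class, rose by 0.20 ± 0.052 (adjusted p = 0.0120), Ndufb3 by 0.19 ± 0.053 (adjusted p = 0.0150) and Ndufb5 by 0.16 ± 0.046 (adjusted p = 0.0250), all 3 without overlap. In the proximal membrane arm, Ndufa11 rose by 0.23 ± 0.062 (adjusted p = 0.0127), also without overlap, and Ndufa8 by 0.17 ± 0.056 (adjusted p = 0.0464), with a call kept in 6 of the 24 fits that left out 1 array. Ndufa1, an X-linked subunit with 1 membrane span, had -0.055 ± 0.058 (adjusted p = 0.561). Ndufa4, the complex IV subunit, had levels of 11.56, 11.68 and 11.80 on high fat and 11.52, 11.65 and 11.72 on low fat, with a change of 0.053 ± 0.051 (adjusted p = 0.520).

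In all, 9 of the 33 genes had every high fat mouse above every low fat mouse at day 3 (Ndufv2, Ndufs8, Ndufa2, Ndufa6, Ndufa11, Ndufb3, Ndufb5, Ndufb7 and Ndufb10), against 3.50% of all genes tested, and none had the reverse (2.59%). When only the 12 day 3 arrays were fitted, with their own estimate of the spread, Ndufs8 and Ndufb7 were called (adjusted p = 0.0487 and 0.0336) and the other 10 were not, at adjusted p of 0.0534 (Ndufv2) to 0.128 (Ndufa8). That fit has the same log2 changes and called 507 genes in place of 861.

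**Figure D2:**
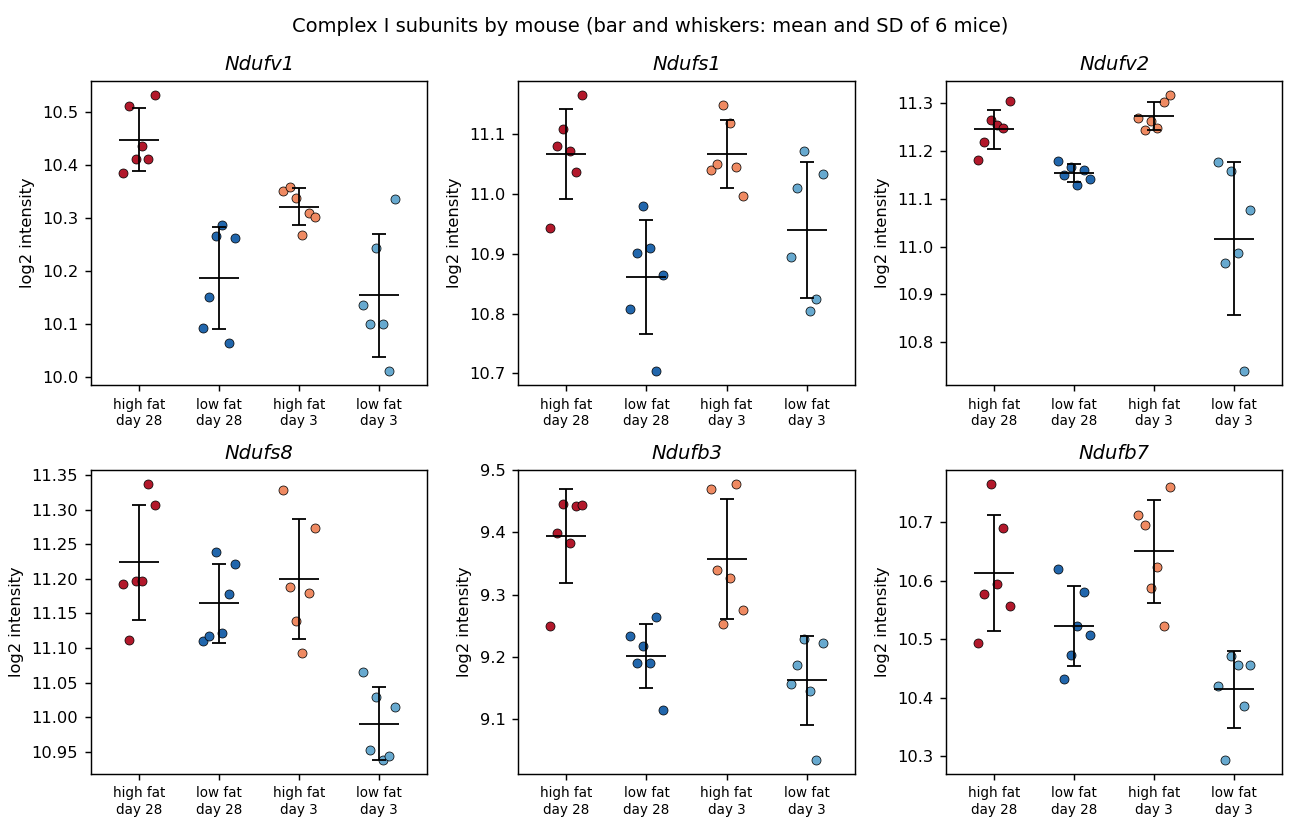
Log2 intensity of 6 complex I genes in each mouse (points), with the mean and SD of the 6 mice of a group (bar and whiskers), for high fat and low fat at day 28 and at day 3. In Ndufv2, Ndufs8, Ndufb3 and Ndufb7 the day 3 high fat mice all lie above the day 3 low fat mice, and in Ndufv1 and Ndufv2 the day 28 high fat mice all lie above the day 28 low fat mice.

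After 28 days, 3 of the 33 complex I genes were higher on high fat and none was lower, against 5.35% of all genes tested called higher and 7.18% lower. The 3 were Ndufv1 and Ndufs1, which are core genes of the electron input module, and Ndufb3, an accessory gene of the distal membrane arm. Ndufv1 had levels of 10.39, 10.42 and 10.53 (lowest, median and highest) in high fat mice, against 10.06, 10.21 and 10.29 in low fat mice. The groups did not overlap, and the log2 change was 0.26 ± 0.056 (adjusted p = 0.00266), or 1.20-fold. It was called in all 24 fits that left out 1 array and in the fit of the 12 day 28 arrays alone (adjusted p = 0.00879).

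Ndufs1 had levels of 10.94, 11.08 and 11.17 in high fat mice and 10.70, 10.88 and 10.98 in low fat mice at day 28. One high fat mouse, replicate 1, lay within the low fat range. The log2 change was 0.21 ± 0.058 (adjusted p = 0.0197), and it was lost without high fat replicate 6 (adjusted p = 0.0511) or low fat replicate 5 (adjusted p = 0.0583). Ndufb3 had levels of 9.25, 9.42 and 9.44 in high fat mice, against 9.11, 9.20 and 9.26 in low fat mice, with high fat replicate 1 again the only one within the low fat range. It rose by 0.19 ± 0.053 (adjusted p = 0.0162), close to its rise at day 3.

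The other core genes were not called at day 28. Ndufv2 had levels of 11.18, 11.25 and 11.30 on high fat, against 11.13, 11.15 and 11.18 on low fat, again without overlap, and a change of 0.091 ± 0.057 (adjusted p = 0.341). Ndufs7 had 0.074 ± 0.044 (adjusted p = 0.310) and Ndufs8 0.059 ± 0.051 (adjusted p = 0.512). In the accessory genes the next smallest adjusted p values belonged to Ndufb5 (0.12 ± 0.046, adjusted p = 0.104), Ndufa11 (0.15 ± 0.062, adjusted p = 0.134) and Ndufa3 (0.13 ± 0.056, adjusted p = 0.143). Ndufa4 had 0.060 ± 0.051 (adjusted p = 0.512). The median log2 change was 0.074 over the 33 genes, 0.091 over the core genes and 0.072 over the accessory genes, against 0.0097 over all genes tested, and 26 of the 33 were above 0 (52.1% of all genes tested). Of the 33, 2 had groups that did not overlap with high fat above low fat (Ndufv1 and Ndufv2), against 3.49% of all genes tested, and none had the reverse (4.56%).

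The 2 diet comparisons use separate mice. Of the 33 genes, 26 had a log2 change above 0 at both days, as 30.3% of all genes tested did, and 2 (Ndufv1 and Ndufb3) were called at both. In 24 of the 33 the change at day 28 was smaller than that at day 3. The difference of the diet effects, day 28 minus day 3, was called for none of the 33 genes by limma, with 3 at an unadjusted p under 0.05, while 1.38% of all genes tested were called in either direction (0.673% higher and 0.708% lower). It was above 0 in 9 of the 33, against 50.1% of all genes tested. That number moved with the processing, to 16 with median centring of the arrays and to 7 with an adipocyte marker covariate. Ndufa7 had the smallest adjusted p, with a diet change of -0.021 at day 28 and 0.21 at day 3, a difference of -0.23 ± 0.076 (adjusted p = 0.106) and a 95% interval of -0.39 to -0.074. Ndufb10 had a difference of -0.18 ± 0.073 (adjusted p = 0.195), Ndufs8 -0.15 ± 0.072 (adjusted p = 0.263) and Ndufv2 -0.17 ± 0.080 (adjusted p = 0.266). Ndufs4 had -0.16 ± 0.087 (adjusted p = 0.310) and Ndufb7 -0.15 ± 0.078 (adjusted p = 0.311). For Ndufv1 and Ndufs1 the difference ran the other way, at 0.095 and 0.079, with adjusted p of 0.550 and 0.640. So the 10 genes called at day 3 and not at day 28 are not shown to respond differently at the 2 times.

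Day 28 against day 3 was not called for any of the 33 genes by limma on either diet, with 8 at an unadjusted p under 0.05 on low fat and 3 on high fat. Over all genes tested, 0.345% were called on low fat (0.173% higher and 0.173% lower) and 0.552% on high fat (0.293% higher and 0.259% lower). On low fat the median log2 change was 0.087 and 31 of the 33 were above 0 (52.9% of all genes tested). Ndufs8 had the smallest adjusted p there, with levels of 11.11, 11.15 and 11.24 at day 28, against 10.94, 10.98 and 11.06 at day 3, a difference of 0.17 ± 0.051 (adjusted p = 0.118). The 2 days did not overlap for this gene, and for none of the other 32, against 0.794% of all genes tested. None had day 28 below day 3 without overlap (0.518%). Ndufb10 followed at 0.15 ± 0.052 (adjusted p = 0.158), Ndufa7 at 0.16 ± 0.054 (adjusted p = 0.159) and Ndufv3 at 0.14 ± 0.052 (adjusted p = 0.179). Then came Ndufb5 at 0.11 ± 0.046 (adjusted p = 0.220) and Ndufv2 at 0.14 ± 0.057 (adjusted p = 0.230).

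On high fat the median change from day 3 was 0.024, with 22 of 33 above 0 (51.9% of all genes tested). With array weights the median was -0.0024 and 15 were above 0, while with median centring of the arrays 27 were above 0. Ndufv1 was the gene whose days did not overlap, 1 of 33 against 0.863% of all genes tested, with day 28 above day 3, and none had the reverse (0.967%). Its levels were 10.39, 10.42 and 10.53 at day 28 and 10.27, 10.32 and 10.36 at day 3, a difference of 0.13 ± 0.056 (adjusted p = 0.289). Next by adjusted p were Ndufa1 at 0.13 ± 0.058 (0.304), Ndufa3 at 0.12 ± 0.056 (0.319) and Ndufa13 at 0.12 ± 0.057 (0.353). Ndufa5 followed at -0.11 ± 0.057 (adjusted p = 0.391) and Ndufb5 at 0.074 ± 0.046 (adjusted p = 0.490). By group mean, the low fat mice at day 3 were the lowest of the 4 groups in 30 of the 33 genes, against 27.1% of all genes tested. This group is shared by the diet comparison at day 3 and the comparison of days on low fat, so their values are not independent.

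The spread among mice differed between groups. The mean log2 level over the 33 genes ran from 11.08 to 11.22 in high fat mice and from 11.04 to 11.12 in low fat mice at day 28. At day 3 it ran from 11.10 to 11.18 in high fat mice and from 10.90 to 11.07 in low fat mice, where the groups did not overlap. Low fat day 3 replicate 5 had the lowest level of its group in 21 of the 33 genes, and high fat day 28 replicate 1 in 20. Without low fat day 3 replicate 5, 10 genes were called at day 3. Without low fat day 3 replicate 1, for which the labels name no removal of genomic DNA, 10 were called.

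Markers of slow fibres moved with diet in the same arrays. Of 11 slow fibre markers on the array (among them Myh7, Myl2 and Tnni1), 9 were called higher on high fat at day 28, with a median log2 change of 3.66, and 11 at day 3, with a median of 4.01. Their mean log2 level ran from 8.62 to 9.60 in high fat and 5.05 to 7.86 in low fat mice at day 28, and from 8.53 to 10.82 in high fat and 4.53 to 7.66 in low fat mice at day 3. Their summed intensity ranged from 6087 to 11075 and 1318 to 3457 at day 28, and from 5615 to 25996 and 553 to 3234 at day 3, in the same order of diets. Within low fat day 3, replicate 5 was lowest both in the complex I mean (10.90) and in the slow fibre mean (4.53), and replicate 3 highest in both (11.07 and 7.66). Within high fat day 28 the mouse lowest in complex I, replicate 1 (11.08), had the highest slow fibre mean of its group (9.60). In a fit that also held the mean of these markers, whose values do not overlap between the diets, no complex I gene was called by limma at either day. The median log2 changes were 0.015 at day 28 and 0.058 at day 3. In that fit 26 and 17 of all genes tested were called at day 28 and day 3, and the median SE of the 33 genes was 0.091 and 0.099, against 0.056 without the markers. The 3 genes called at day 28 without the markers then had log2 changes of 0.088 (Ndufs1) to 0.15 (Ndufv1). The 12 called at day 3 ranged from 0.038 (Ndufv1) to 0.22 (Ndufb5), with Ndufb7 at 0.21 and Ndufa7 at 0.20.

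Adipocyte markers moved as well. Of 8 tested, 7 were called lower on high fat at day 28, and 3 lower and 1 higher at day 3. Over the 8, the median log2 change was -3.87 at day 28 and -1.54 at day 3, with 1 above 0 at each day. The summed intensity of the 9 on the array ran from 8441 to 10026 in high fat and 11200 to 20218 in low fat mice at day 28. At day 3 it ran from 8890 to 16067 in high fat and 7584 to 15822 in low fat mice. This sum is carried by the most intense markers and need not follow the others. The mean log2 level of the 9 ran from 5.32 to 6.33 in high fat and 7.71 to 9.46 in low fat mice at day 28. At day 3 these ranges were 5.52 to 8.71 and 5.95 to 8.81. Their mean log2 level at day 3 was highest on high fat in replicate 5 (8.71), and 11 genes were called without that array. With the adipocyte mean as a covariate, 0 complex I genes were called by limma at day 28 (38 of all genes tested) and 9 at day 3 (852 of all genes tested). At day 28 the log2 changes of the 3 genes called without it were then 0.24 (Ndufv1), 0.19 (Ndufs1) and 0.26 (Ndufb3), while the median SE of the 33 genes was 0.092, against 0.056. Macrophage markers were called lower on high fat in 9 of 9 tested at day 28 and 1 of 9 at day 3. Endothelial markers were called higher in 0 of 8 at day 28 and 5 of 8 at day 3. Of 10 fibroblast and tendon markers, 3 were higher and 1 lower at day 28, with a median log2 change of 0.11, and 6 were higher at day 3, with a median of 0.72. The summed intensity of the fibroblast and tendon markers ran from 7819 to 8755 in high fat and 6437 to 10555 in low fat mice at day 28, and from 8740 to 13500.3 in high fat and 6786 to 13172 in low fat mice at day 3. Skeletal muscle markers such as Ckm and Acta1 were not called at either day (0 of 6), and their mean log2 level ran from 13.37 to 13.50 over all 24 mice. The part of these markers in the complex I differences was not tested beyond those fits.

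**Figure D3:**
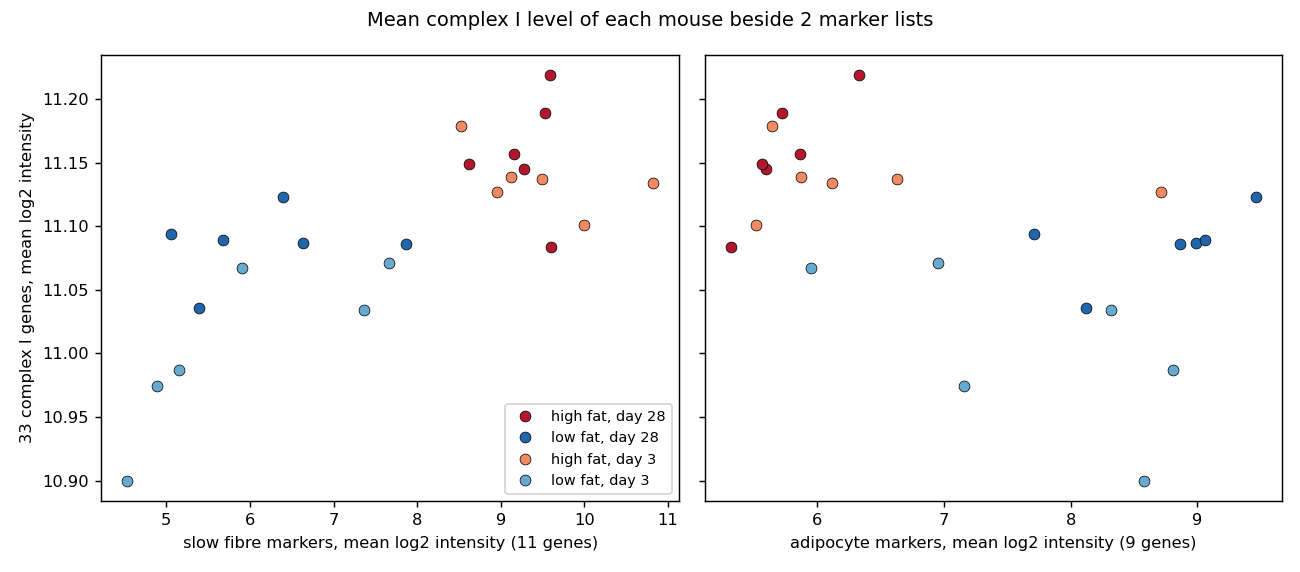
Mean log2 intensity of the 33 complex I genes in each of the 24 mice (vertical axis) against the mean log2 intensity of the slow fibre markers (left) and of the adipocyte markers (right), coloured by diet and day. The high fat mice lie at slow fibre means of 8.53 and above and the low fat mice at 7.86 and below, and the lowest complex I mean, 10.90, belongs to a low fat day 3 mouse.

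The other genes of the respiratory chain were read beside complex I in the same fit. At day 3, 11 of 31 tested genes of complexes II to V were called higher and none lower, with a median log2 change of 0.14. Among them were Sdhd of complex II (0.26 ± 0.051), Cyc1 of complex III (0.23 ± 0.048) and Atp5k of the ATP synthase (0.26 ± 0.057). The called genes were 2 of 4 in complex II, 3 of 7 in III, 1 of 11 in IV and 5 of 9 in V. In complex IV the median was 0.079, with 9 of 11 above 0. At day 28 1 of 31, Sdhb, was higher (0.18 ± 0.057, adjusted p = 0.0420) and 2 were lower, the complex IV isoforms Cox6a1 (-1.08 ± 0.19) and Cox8a (-0.74 ± 0.18), which muscle fibres largely replace by other isoforms. The median over the 31 was then 0.087. Of 15 tested assembly factors of complex I, which build the enzyme without remaining in it, 2 (Ndufaf1 and Ndufaf8) were called higher at day 3 with 0.20 ± 0.065 and 0.23 ± 0.072. Over the 15, the median log2 change at day 3 was 0.15, with 13 above 0. None of the 15 was called at day 28 by limma, where their median log2 change was -0.017, with 7 above 0. Differences between these lists were not tested.

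**Figure D4:**
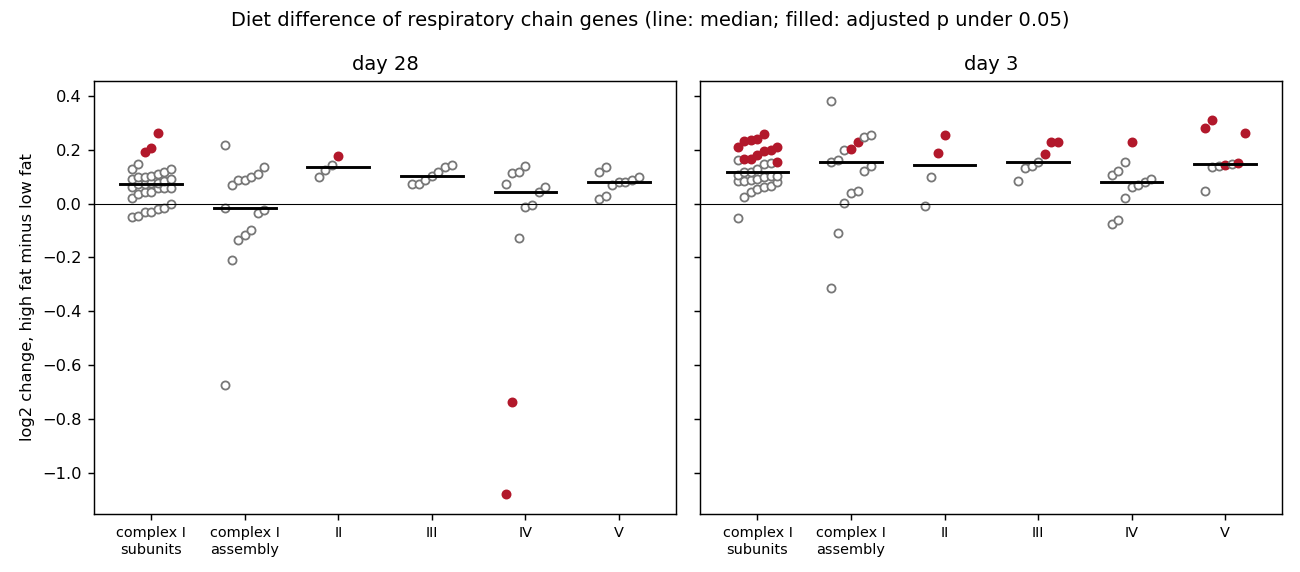
Log2 change (high fat minus low fat) of each tested gene of complex I (33 genes), of its assembly factors (15), and of complexes II, III, IV and V (4, 7, 11 and 9 genes), at day 28 (left) and day 3 (right). Black lines are medians and filled red points were called. The complex I median is 0.074 at day 28 and 0.12 at day 3.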

How the data were processed

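Total RNA of quadriceps from 24 mice was hybridised to 1 Affymetrix array each. The authors deposited 1 intensity per probe set and array, made with GCRMA per the submitters' processing notes. GCRMA estimates background by probe sequence, puts arrays on a common scale and summarises each set's probes. Neither its version nor the probe definition is stated in the sources used here. The table holds 16361 probe sets, 14771 of them with 1 symbol in the platform annotation used. Intensities ran from 0.881 to 20520 with array medians of 6.56 to 6.90, and any 2 arrays correlated at 0.978 to 0.995. The number of arrays limits the precision.

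Groups came from the sample titles. Log2 was taken with no offset or further normalization, and the probe set of highest mean represented a gene. A linear model of the 4 groups was run in R 4.3.3 by limma 3.58.1 (moderated by eBayes, 20 residual degrees of freedom, two-sided). The fit was tested on simulated data. Outliers were sought in groups of 6 with Dixon's critical value of 0.625. Alternatives were another filter, scaling, offset, weighting, variance model or subset of arrays, a replicate block, 3 covariates and each array left out. Changes with their errors are given for core subunits, Ndufb3 and Ndufa4 in the diet comparisons. In each comparison they are also given for the 6 genes of smallest adjusted p. Further genes are named where called or where they stand at the end of a count, with Ndufa5 and Ndufa9 added at day 3. The members and lists were chosen with earlier results of these data known. The labels used here name no array batch.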

Additional observations from a re-analysis of the deposited data

Results flagged for a closer look

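Among the 132 sets of 6 mice examined (33 genes in 4 groups), 3 held a mouse whose gap to its nearest neighbour was large against the range of its group by Dixon's 95% criterion, which chance alone meets in about 1 of 20 groups. Ndufb2 in high fat mice at day 28 had its highest value, 11.16, in replicate 5, against 10.99 in the next mouse. Ndufb3 in high fat mice at day 28 had its lowest value, 9.25, in replicate 1, against 9.38 in the next. Ndufs4 in low fat mice at day 3 had its lowest value, 10.04, in replicate 6, against 10.24 in the next.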

How the results depend on the processing

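At day 3, 12 complex I genes were called. The count was 2 with only the arrays compared and 0 with slow fibre markers as covariate. It ran from 8 to 14 in the others, and leaving out 1 array gave 9 to 13. With only the arrays compared, the median SE of the 33 genes was 0.065 at day 3 and 0.057 at day 28. It was 0.056 in the fit of all arrays. At day 28, 3 were called. The count was 0 with slow fibre markers as covariate, 0 with adipocyte markers, where the 3 genes kept log2 changes of 0.19 to 0.26 at a larger SE, and 3 or 4 otherwise, and leaving out 1 array gave 2 to 3. For the difference of diet effects and for both comparisons of days the count was 0 throughout, also when 1 array was left out (0 to 0). The number of genes above 0 was less stable. For the difference of diet effects it was 16 with median centring, 12 with array weights and 7 with the adipocyte covariate, in place of 9. For day 28 against day 3 on high fat it was 27 with median centring and 15 with array weights, in place of 22. Over all 33 genes, the slow fibre covariate turned the sign of 11 diet changes at day 28 and 4 at day 3, the adipocyte covariate 7 and 1, and median centring and array weights 1 each at each day. None of these genes had been called in the comparison where its sign turned. Among the genes followed singly, the sign turned for Ndufs1 at day 3 (-0.0082), Ndufs8 (-0.028) and Ndufv2 (-0.042) at day 28, all beside slow fibre markers, and Ndufa4 at day 28 (-0.023) with the adipocyte mean. The cause was not tested. Ndufb5 was called at day 28 with a trended, robust variance model (adjusted p = 0.0372).

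With the replicate block, 11 genes were called at day 3, 3 at day 28 and 0 in the other comparisons, with Ndufa8 losing its call (adjusted p = 0.0709). The numbers name different mice, and 3 of 6 same-numbered pairs correlated above 0.1 in their deviations in each diet comparison. At day 3 no mouse, and at day 28 2 of 6 mice, correlated best with its own number. With 6 pairs in each comparison, this cannot settle whether same-numbered samples share more than a number.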
